A study of Mus musculus with 6 samples.

Results

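The genes of translation initiation, translation elongation and tRNA charging were compared between KPC-shBrca2 and KPC-shControl cells. They were taken by gene symbol: every eukaryotic initiation factor gene with a symbol beginning Eif1 to Eif6, every elongation factor gene beginning Eef1 or Eef2, and the cytosolic and mitochondrial aminoacyl-tRNA synthetases whose symbols end in ars or prs, with or without a final digit. Farsa, Farsb and Tarsl2 do not match this rule and were put in a related list. The eIF2 kinases (Eif2ak genes) and Eif2s1 were left out by the rule, and Coprs and Ptprs, whose symbols end in the same letters, were left out because they encode no synthetase. In all, 85 of the 10616 genes of the count table were members, and the table held no row for Eif4e, Eif5b or Sars. They fell into 9 classes by role, from 3 eIF4E-binding proteins to 17 cytosolic synthetases.

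Translation begins when eIF2 carries the initiator tRNA to the small ribosomal subunit, together with eIF1, eIF1A, eIF5 and the large scaffold eIF3. The eIF4 factors bind the mRNA cap, unwind the leader and bring the mRNA to this complex, and the eIF4E-binding proteins block that step when mTORC1 is inactive. Elongation factors then deliver charged tRNAs and move the ribosome, while the synthetases join each amino acid to its tRNA, with separate nuclear genes for the mitochondrial set in most cases. Several cytosolic synthetase genes are textbook targets of ATF4, the transcription factor of the amino acid response.

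KPC cells are a mouse pancreatic ductal adenocarcinoma line from a genetically engineered tumour model. KPC-shBrca2 cells carried a lentiviral hairpin against Brca2, the gene of a homologous recombination protein, and KPC-shControl cells carried a non-targeting hairpin in the same vector. Both were selected with puromycin, grown as monolayers in growth medium and sorted for propidium iodide-negative cells, and 3 libraries were made for each. A single hairpin line was compared with a single control line, and how many clones each held was not given. No label ties the 3 libraries of a group to separate cultures, so p-values measure only the spread between these libraries, which may be technical. The study's methods and figure legend both describe these libraries as cultured cells. That legend also counts them in mice, which it does not explain. Each library counted poly(A) RNA at its 3′ end, and counts here are normalized to a common library depth (median-of-ratios size factors).

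The 6 libraries held 1519340 to 2452467 counts. Brca2 itself, the check of the labels, stood at 12.1 ± 1.61 normalized counts in KPC-shBrca2 and 36.5 ± 6.14 in KPC-shControl (SD, n = 3), from 10 to 14 and 33 to 52 raw counts, a log2 difference of -1.61 ± 0.44 (SE; DESeq2, adjusted p 0.029). That call was lost when KPC-shBrca2 replicate 2, KPC-shBrca2 replicate 3 or KPC-shControl replicate 2 was left out (adjusted p 0.152 to 0.371). The table held 8 of 9 epithelial and ductal markers, and Krt18 was the most abundant of them, at a mean of 9184 normalized counts. Epcam and Cldn7 had few counts, at means of 6.52 and 5.36. Both lay below the fibroblast marker Col1a2 (13.4) and the leukocyte marker Cd68 (15.6). The summed share of the 8 markers was 0.809% to 0.838% of counts in KPC-shBrca2 and 0.842% to 0.920% in KPC-shControl. That sum is mostly keratins 8, 18 and 19, while the ductal markers Krt7 and Sox9 were called higher in KPC-shBrca2 (log2 fold change 1.21 for Krt7). Of the markers of other cells, 1 of 8 for fibroblasts, 1 of 5 for leukocytes, 1 of 5 for acinar cells and 0 of 3 for endothelium were in the table. The highest of these 3 was Cela1, at a mean of 43.4.

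Eif3e, an eIF3 subunit, was the single member that passed the test, and it was higher in KPC-shBrca2. A gene was called where DESeq2's likelihood ratio test gave an adjusted p under 0.1, the log2 fold change was past 0.5 in either direction and the mean count was over 5. Of the 84 members with an adjusted p, 1 was called higher and 0 were called lower, against 0.77% called higher, 0.5% called lower and 1.27% called in all among the 9997 genes tested. The other member, Eef2k, the kinase that inhibits eEF2, was at a mean of 2.77 counts and was removed by the filter on low counts. An unadjusted p under 0.05 was reached by 8 members (9.52%), 3 higher and 5 lower, where the background was 8.66%. By edgeR's quasi-likelihood test, 10 of 83 members (12.05%) reached it and 0 were called, beside 14.45% of 9092 genes.

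The estimate was above 0 for 34 members and below 0 for 50, and the median log2 fold change was -0.07, beside 0.00 (-0.00094) over all genes tested. For 30 members (35.7%) the 95% interval of the log2 fold change lay wholly within 0.5 of 0, so a change as large as the calling threshold lay outside the interval, whereas the same held for 13.5% of all genes tested. Members had a median of 231 counts, beside 64.1 over all genes tested. Among genes with a mean over 100 counts, the share was 49.2% of 61 members and 35.3% of 3773 genes. The variation between libraries of a group was alike there, with a median coefficient of variation of 12.5% for members and 12.6% for all genes. The median standard error there was 0.18 and 0.199, and the median absolute log2 fold change 0.135 and 0.173. The cause of the difference in shares was not tested.

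**Figure D1:**
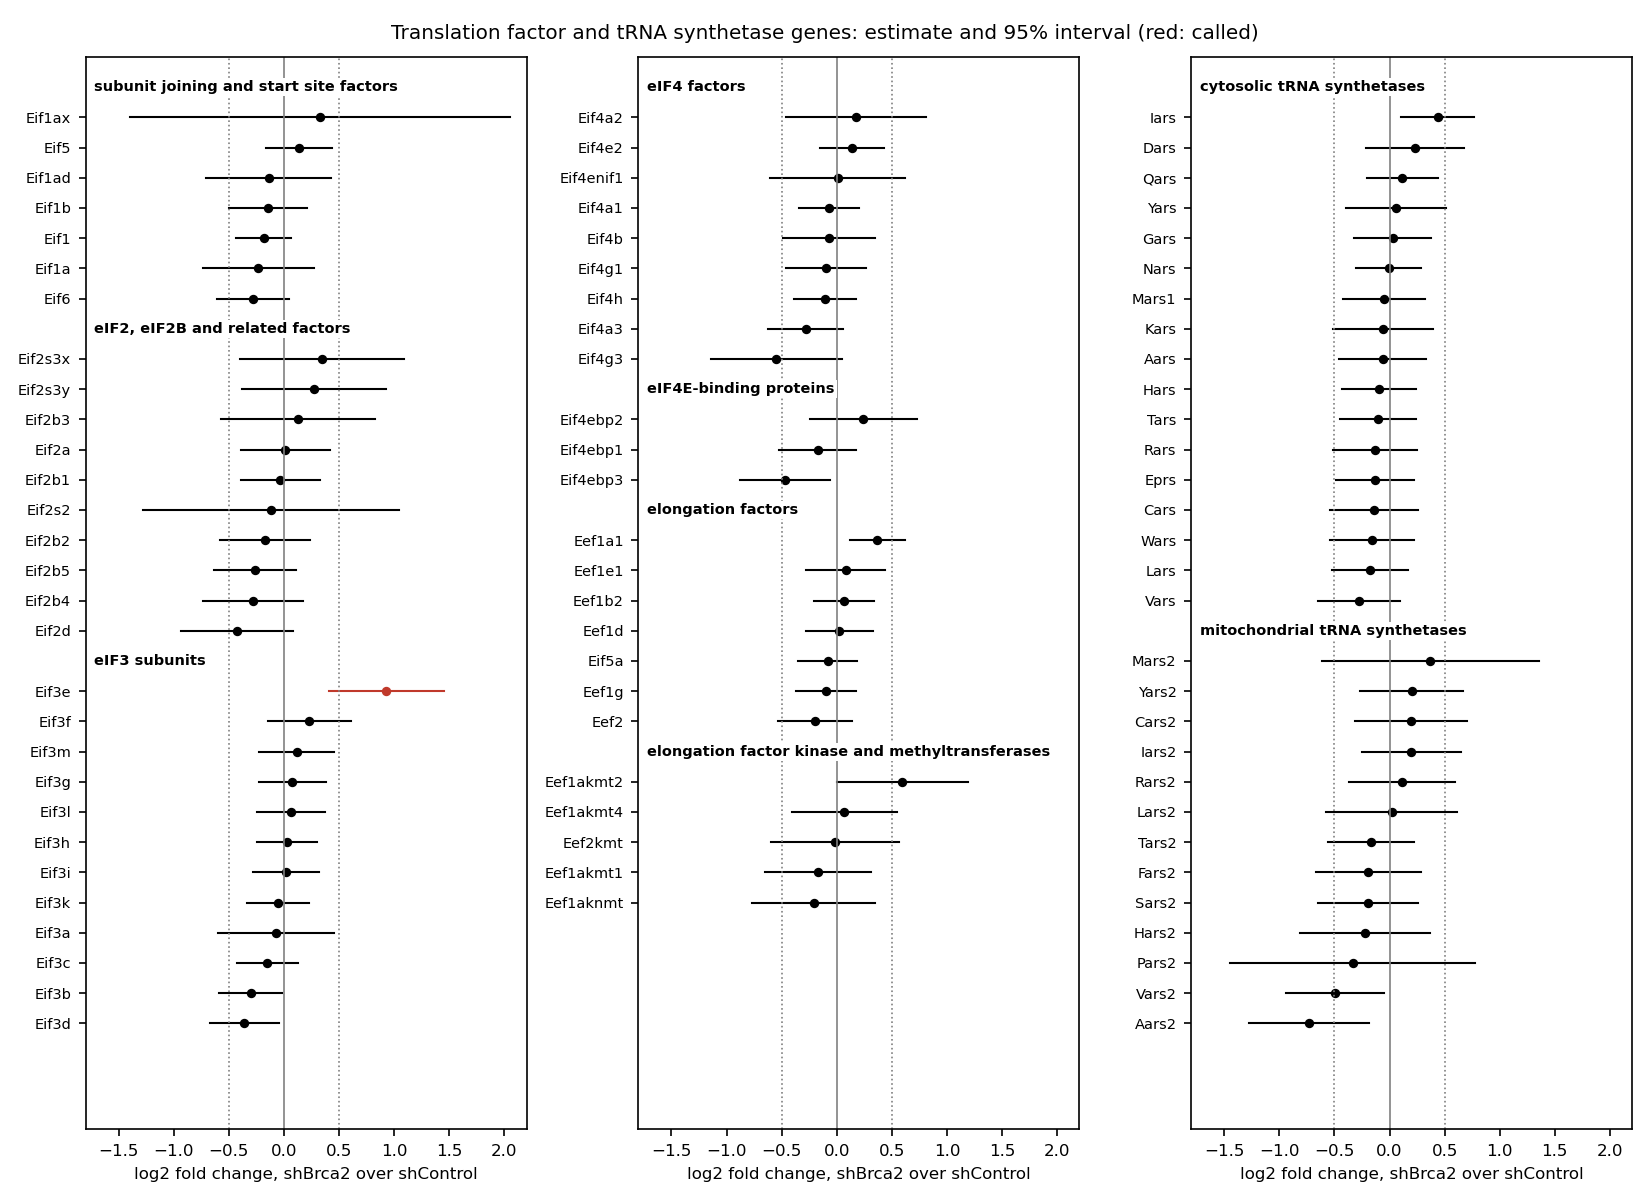
Log2 fold change (KPC-shBrca2 over KPC-shControl, x axis) of 83 of the 84 members with an adjusted p, grouped by class, with points for the estimates, lines for their 95% intervals and dotted lines at the fold threshold of 0.5. Eif3e, in red at 0.93, is the called member, and the wide lines belong to genes with few counts such as Eif1ax and Eif2s2.

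In 15 members (17.9%) the 3 libraries of one line did not overlap those of the other, 7 higher and 8 lower in KPC-shBrca2. Over all genes tested 20.6% did not overlap, 10.2% being higher. The members' share lay near the background. The 85 genes together took 2.06%, 2.12% and 2.05% of all counts in the KPC-shBrca2 libraries and 2.03%, 2.19% and 2.17% in the KPC-shControl libraries, which overlapped. Each library was made from many sorted cells in bulk, so fewer cells with a transcript and less of it per cell cannot be told apart. A library's counts are relative to its total, so a change shared by all transcripts would not be seen.

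The eIF3 complex holds the small subunit ready for the mRNA, and 12 of its subunits were measured. Eif3e (chromosome 15, 43250040 to 43282736, mm10) encodes a subunit of the complex's core of PCI-domain proteins. The KPC-shBrca2 libraries held 158, 161 and 133 normalized counts of Eif3e and the KPC-shControl libraries 47.5, 87.2 and 102. The groups did not overlap, and KPC-shControl replicate 1 was the lowest of the 6. On the log2 scale the difference was 0.93 ± 0.27 (SE; DESeq2, unadjusted p 0.000497, adjusted p 0.051), and the adjusted p was 0.039 to 0.054 in the other DESeq2 fits of all 6 libraries. Its call was lost by edgeR (adjusted p 0.125) and in 5 of the 6 fits that left out a library. Without KPC-shControl replicate 1 the log2 fold change was 0.67 (adjusted p 0.248), without KPC-shControl replicate 2 it was 1.01 (0.327), and without KPC-shBrca2 replicates 1, 2 and 3 it was 0.89, 0.88 and 1.01 (0.312, 0.255 and 0.253). Without KPC-shControl replicate 3 the call held (adjusted p 0.023).

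Eif3e was also set against its own complex, which reuses the same Eif3e counts and adds no support to its call. Its counts were 1.70%, 1.65% and 1.47% of the summed counts of the other eIF3 subunits in KPC-shBrca2, and 0.502%, 0.891% and 1.11% in KPC-shControl. On the log2 scale that difference was 1.02, a value computed after the counts had been seen and given with no test. The 8 PCI- and MPN-domain subunits that form the core had a median log2 fold change of 0.05, with 5 above 0 and 3 below, and apart from Eif3e none of them had groups that did not overlap. Eif3e was the second least abundant of the 12, after Eif3a, the largest scaffold subunit, which averaged 108 counts.

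Eif3d and Eif3b lay on the other side. Eif3d, a cap-binding subunit (chromosome 15), was at 576, 527 and 499 normalized counts in KPC-shBrca2 and 590, 759 and 703 in KPC-shControl. Every KPC-shBrca2 library was below every KPC-shControl library, by a narrow gap. The log2 fold change was -0.36 ± 0.16, with an unadjusted p of 0.0233 and an adjusted p of 0.447, so it did not pass the test. Eif3b, the subunit on which Eif3g and Eif3i assemble (chromosome 5), was at 654, 696 and 621 against 774, 876 and 782. Its groups did not overlap either, and its log2 fold change of -0.30 ± 0.14 did not pass (unadjusted p 0.0357, adjusted p 0.523). The 4 subunits outside the core (Eif3b, Eif3d, Eif3g and Eif3i), a group set after the values were seen, took 0.151% of counts in KPC-shBrca2 and 0.163% in KPC-shControl, with no overlap. That lower sum rests on Eif3b and Eif3d and adds no support to them. Eif3g (0.07 ± 0.16) and Eif3i (0.02 ± 0.15) lay above 0, and their groups overlapped.

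**Figure D2:**
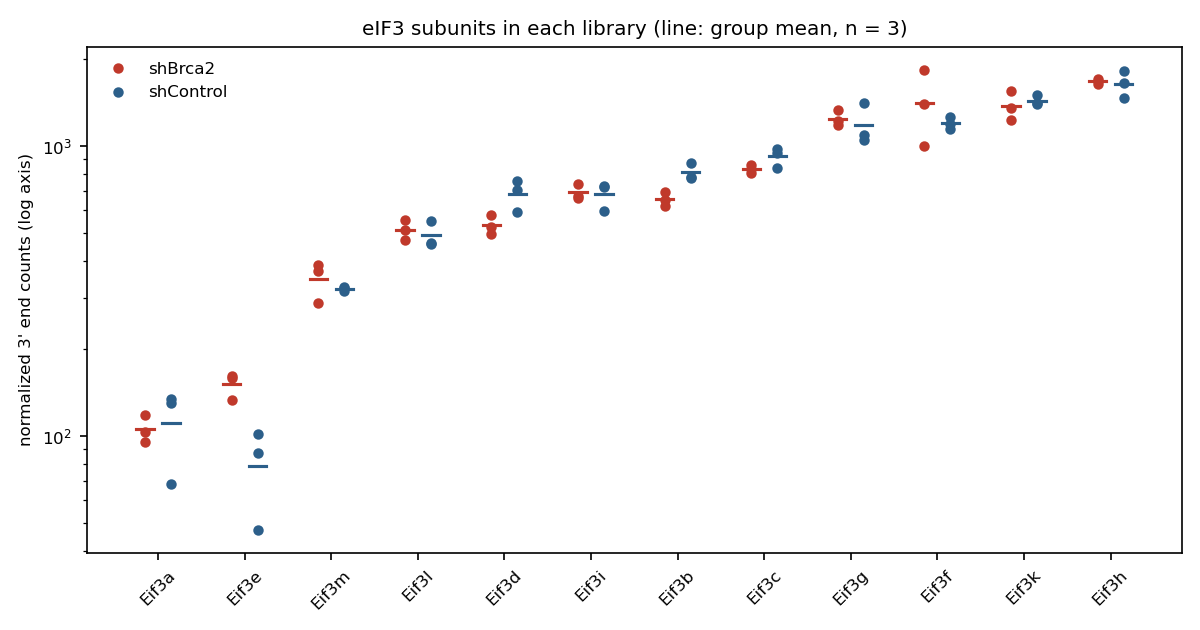
Normalized 3′ end counts (log y axis) of the 12 eIF3 subunits, ordered by mean count, with 1 point per library and a short line at each group mean (n = 3). Eif3e shows the widest gap between the lines, at 133 to 161 counts in KPC-shBrca2 and 47.5 to 102 in KPC-shControl, while most other subunits overlap.

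The most abundant subunits had estimates close to 0. Eif3h, at a mean of 1655 counts, had a log2 fold change of 0.03 (95% interval -0.24 to 0.30), and Eif3k, at 1406, had -0.06 (-0.34 to 0.22). Eif3f spread widely among the KPC-shBrca2 libraries, at 1392, 1828 and 1002 counts, around KPC-shControl values of 1146, 1262 and 1193. As a whole the complex took 0.462% ± 0.0149 of counts in KPC-shBrca2 and 0.463% ± 0.0162 in KPC-shControl (SD, n = 3), and 7 of its 12 members had intervals within 0.5 of 0.

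The factors of subunit joining and start site choice took a smaller share of every KPC-shBrca2 library, but no gene of the class passed the test. The 7 genes had a median log2 fold change of -0.15, with 2 above 0 and 5 below. Their summed counts were 0.178%, 0.168% and 0.166% of the KPC-shBrca2 libraries and 0.184%, 0.198% and 0.194% of the KPC-shControl libraries. These did not overlap, and the ratio of the means was 0.891. Most of these counts came from Eif1, the factor that guards start codon choice (chromosome 11), and from Eif6, which keeps free large subunits from joining. Eif1 was at 2092, 2037 and 1986 counts in KPC-shBrca2 and 2408, 2337 and 2198 in KPC-shControl. The groups did not overlap, yet the log2 fold change of -0.18 ± 0.13 had an unadjusted p of 0.149. Eif6 overlapped, at 767, 711 and 627 against 697, 959 and 901 (log2 fold change -0.28 ± 0.17, unadjusted p 0.0884). Eif5, which triggers GTP hydrolysis on eIF2, was on the other side without overlap (0.14 ± 0.15).

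For eIF2, its exchange factor eIF2B and the related factors, 4 of 10 estimates were above 0 and 6 below, with a median of -0.08. By DESeq2, 0 of these genes had an unadjusted p under 0.05, beside 8.66% of all genes tested. In sum they took 0.0638%, 0.0614% and 0.0634% of counts in KPC-shBrca2 and 0.0707%, 0.0685% and 0.0678% in KPC-shControl, again without overlap, at a ratio of 0.911. This class and the previous one were the 2 of 9 classes whose shares did not overlap, and 20.6% of single genes did not overlap either. No single gene of the class had groups that did not overlap. Eif2d, a non-canonical initiator tRNA factor, was among the 3 members with a mean over 50 counts that varied most over the 6 libraries. It read 176, 147 and 80.9 counts in KPC-shBrca2 and 156, 212 and 170 in KPC-shControl (log2 fold change -0.43 ± 0.26, unadjusted p 0.10), and its locus overlaps Rassf5 in the annotation. For the catalytic subunit of eIF2B, Eif2b5, the log2 fold change was -0.26 ± 0.19, and for the regulatory subunit Eif2b2 it was -0.17 ± 0.21.

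**Figure D3:**
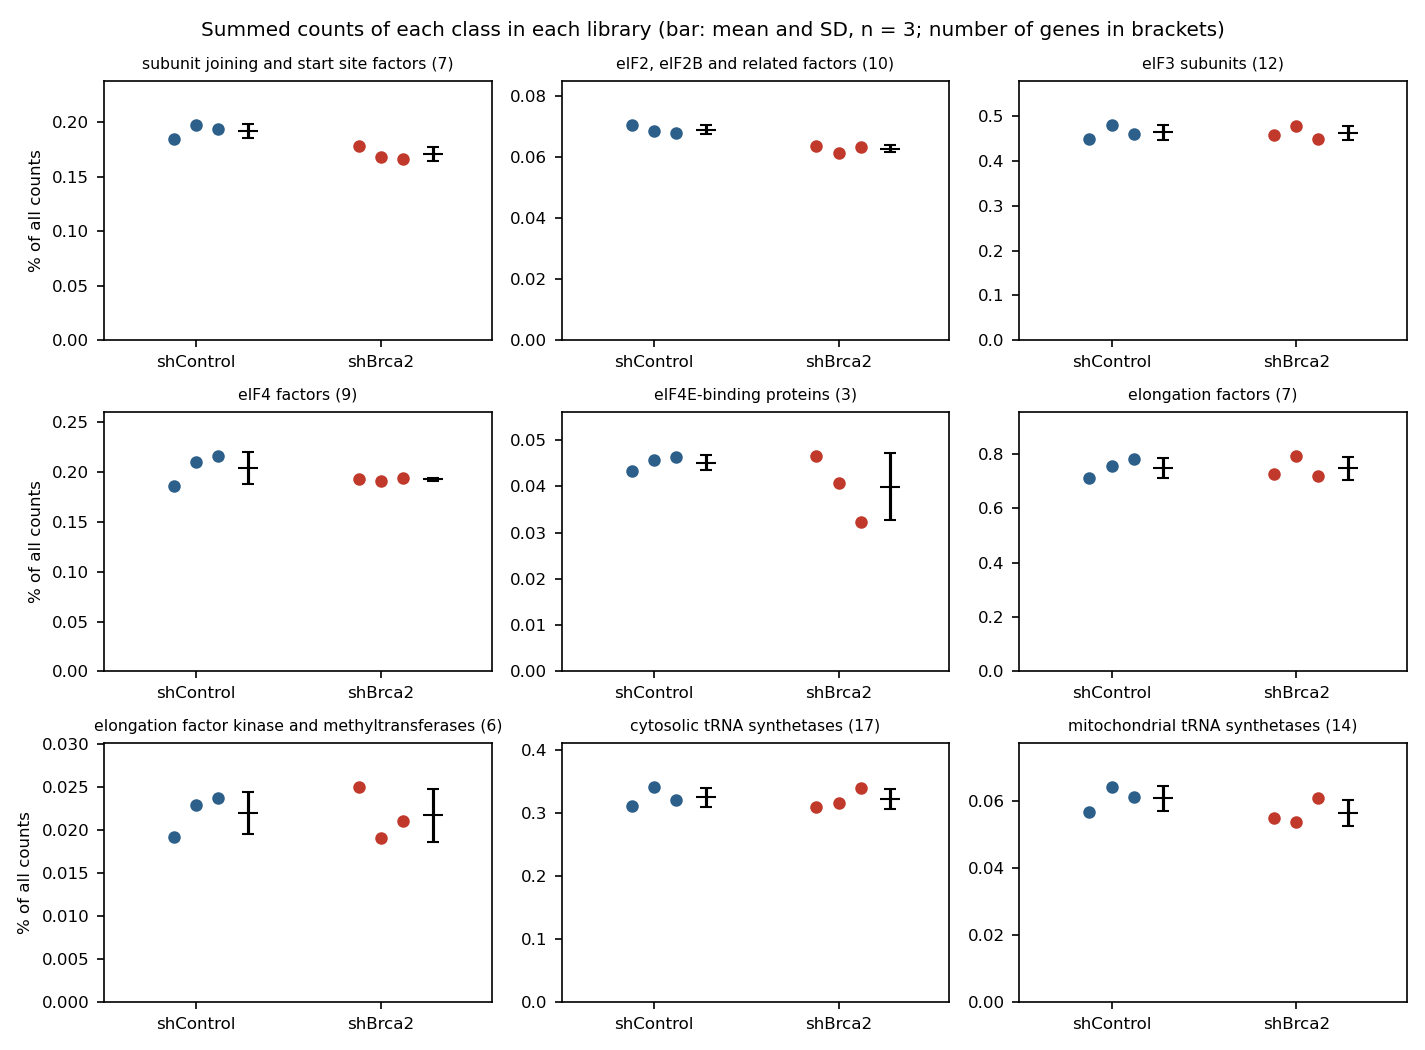
Summed counts of each of the 9 classes as a percentage of all counts (y axes from 0), with 1 point per library and the mean with SD (n = 3) beside them. The subunit joining factors and the eIF2 and eIF2B genes are the classes whose points do not overlap, for example 0.166% to 0.178% against 0.184% to 0.198%.

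The cap-binding and unwinding factors gave a median of -0.07 over 9 eIF4 genes, 3 above 0 and 6 below. The gene of eIF4E itself, Eif4e, was not in the count table. The helicase gene Eif4a1, at a mean of 1347 counts, had a log2 fold change of -0.07 (95% interval -0.34 to 0.21), and its helper Eif4h, at 743, had -0.11 (-0.39 to 0.18). Both intervals excluded a change of 0.5. Eif4g3, a less abundant eIF4G scaffold, was at 58.6, 52.9 and 40.0 counts in KPC-shBrca2 and 51.5, 83.0 and 85.0 in KPC-shControl. The groups overlapped, and the log2 fold change was -0.55 ± 0.30 with an unadjusted p of 0.0717. Eif4a3, the helicase of the exon junction complex rather than of initiation, was at 530, 508 and 378 against 546, 626 and 547 (-0.28 ± 0.17, unadjusted p 0.10). These did not overlap, and Eif4e2, a cap-binding homologue of eIF4E, was the other such gene of the class, on the higher side (0.14 ± 0.15).

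Among the eIF4E-binding proteins, Eif4ebp3 had the lowest p. It held 166, 115 and 131 counts in KPC-shBrca2 and 196, 195 and 177 in KPC-shControl, with no overlap. Its log2 fold change of -0.47 ± 0.21 did not pass the test (unadjusted p 0.0247, adjusted p 0.451). Eif4ebp1, the most abundant of the 3 repressors, overlapped at 678, 608 and 434 against 597, 666 and 672 (-0.17 ± 0.18), and KPC-shBrca2 replicate 3 was the lowest. Eif4ebp2 lay above 0 (0.24 ± 0.25).

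The elongation factors were the most abundant class, with 0.747% ± 0.0409 of counts in KPC-shBrca2 and 0.749% ± 0.0358 in KPC-shControl. Eef1a1, which carries charged tRNA to the ribosome (chromosome 9), had the second lowest p of all members. It was at 2382, 2344 and 2433 counts in KPC-shBrca2 and 1771, 1856 and 1919 in KPC-shControl. The groups were tight and did not overlap, with a log2 fold change of 0.37 ± 0.13 and an unadjusted p of 0.00356, but the adjusted p was 0.175 and the fold was under the threshold of 0.5. Eef1a1 has processed pseudogenes, and the treatment of reads shared with them was not given in the sources used here, so its count is uncertain. Its guanine exchange partner Eef1b2, the most abundant member at 3620 counts, had a log2 fold change of 0.07 (95% interval -0.20 to 0.34). Eef2, the translocation factor, was at 2615, 3500 and 2424 against 2754, 3375 and 3681, which overlapped (-0.20 ± 0.17, unadjusted p 0.242). In 5 of the 7 genes the interval lay within 0.5 of 0. Among these was Eef1e1 (-0.28 to 0.44), which was taken into the class by its symbol.

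The enzymes that modify these factors were measured from few counts. Eef1akmt2, a lysine methyltransferase of eEF1A (chromosome 7), read 74.9, 62.4 and 51.3 counts in KPC-shBrca2 and 43.4, 40.2 and 40.5 in KPC-shControl. These did not overlap, and the log2 fold change was 0.59 ± 0.30, with an unadjusted p of 0.0509 and an adjusted p of 0.581. The other methyltransferases of eEF1A were Eef1akmt1 (-0.17 ± 0.24), Eef1akmt4 (0.07 ± 0.24) and Eef1aknmt (-0.21 ± 0.28). Eef1akmt4 shares its locus with a readthrough transcript of Ece2. None of the 5 tested genes of the class had an interval within 0.5 of 0.

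**Figure D4:**
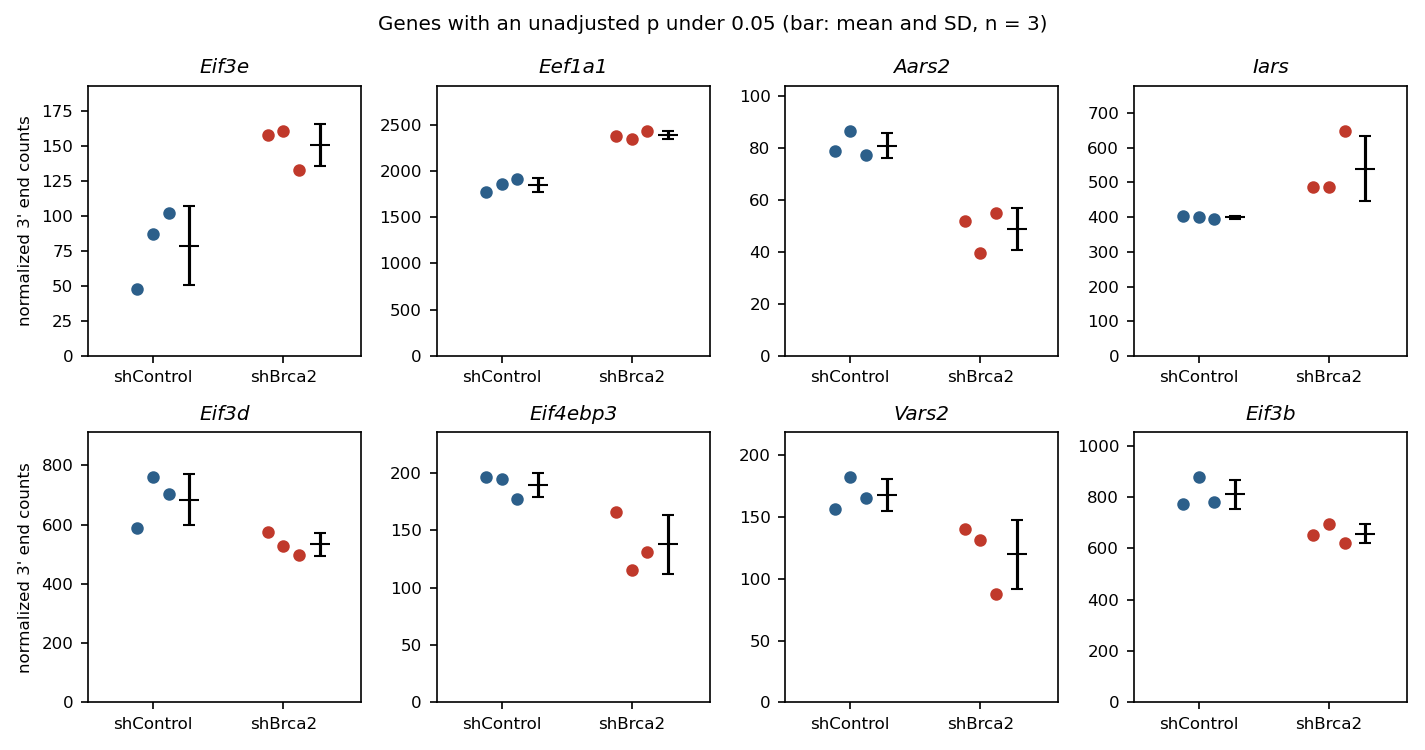
Normalized 3′ end counts (y axes from 0) of the 8 members with an unadjusted p under 0.05, with 1 point per library and the mean with SD (n = 3). The 3 genes on the higher side are Eif3e, Eef1a1 and Iars and the 5 on the lower side are Aars2, Eif3d, Eif4ebp3, Vars2 and Eif3b. In each the 2 groups do not overlap, beside 20.6% of all genes tested. The 8 were picked by p from these same counts, so this is no separate result.

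The 17 cytosolic synthetases showed no common shift. They took 0.323% ± 0.0155 of counts in KPC-shBrca2 and 0.325% ± 0.0158 in KPC-shControl, and the median log2 fold change was -0.06, with 5 above 0 and 12 below. Iars, the isoleucyl-tRNA synthetase (chromosome 13, 49682130 to 49734267), was the exception with the lowest p. It was at 486, 486 and 648 counts in KPC-shBrca2 and 404, 400 and 396 in KPC-shControl. The KPC-shControl libraries lay within a few counts of each other and all below the KPC-shBrca2 libraries, of which replicate 3 was the highest. The log2 fold change was 0.44 ± 0.17 (unadjusted p 0.00986, adjusted p 0.307), which did not pass. The valyl enzyme Vars was at 203, 226 and 236 against 225, 315 and 265 (-0.28 ± 0.19, unadjusted p 0.146).

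The most abundant synthetases were close to 0. Gars, for glycine, averaged 1174 counts with a log2 fold change of 0.03 (95% interval -0.32 to 0.38), and Nars, for asparagine, averaged 686 with -0.01 (-0.30 to 0.29). Kars, the lysyl enzyme, was nearly constant in KPC-shBrca2 at 632, 642 and 637 counts, while in KPC-shControl it ranged over 394, 940 and 658. Among the 8 synthetases that assemble with scaffold proteins into the multi-tRNA synthetase complex, 3 estimates were above 0 and 5 below (median -0.06), and among the other 9 cytosolic enzymes 2 were above and 7 below (median -0.09). Lars, a member of that complex, was lower without overlap (214, 221 and 226 against 256, 235 and 259), at a log2 fold change of -0.18 ± 0.17.

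Because ATF4 controls several synthetase genes through the C/EBP-ATF response element, RefSeq promoters on GRCm38.p6 (250 bases before to 50 after each start) were searched on both strands for the letters TGATGNAA, the core of that element. Promoters were found for 64 of 85 members, among them 10 of the 17 cytosolic and 11 of the 14 mitochondrial synthetase genes, and the rest were not searched. The letters stood in 5 of the 10 cytosolic synthetase promoters, 0 of 12 mitochondrial synthetase promoters, 7 of 78 member promoters (8.97%) and 3.97% of the 32851 promoters in the table. A window of 30 bases around the match is given for 4 of those 5 genes, 5′ to 3′ along the gene, with the match in capitals. In Yars the letters read forward, and in the others the capitals are the reverse complement.
Gars: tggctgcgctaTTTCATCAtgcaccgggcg
Iars: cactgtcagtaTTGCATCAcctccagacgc
Tars: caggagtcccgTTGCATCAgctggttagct
Yars: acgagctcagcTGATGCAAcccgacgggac

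The windows lie at chr6:55037960-55037989 on the plus strand for Gars, chr13:49682126-49682155 on the plus strand for Iars, chr15:11399655-11399684 on the minus strand for Tars and chr4:129189895-129189924 on the plus strand for Yars. These 4 genes did not share a direction, with log2 fold changes of 0.03 for Gars, 0.44 for Iars, -0.10 for Tars and 0.06 for Yars. Of 15 amino acid response genes regulated by ATF4, 0 were called by DESeq2 and 0 had an unadjusted p under 0.05, with a median of -0.05. Among all genes tested these shares were 1.27% and 8.66%, and 15 genes are too few to set 0 apart from them. The lowest p in that list belonged to Slc3a2, the heavy chain of amino acid exchangers (-0.32 ± 0.18, unadjusted p 0.0769). An E-box, CACGTG, was in 17 of 78 member promoters (21.8%) and 7.15% of all promoters, and it overlaps no letters of the other motif here. For either motif the share over all promoters covers 27025 genes, more than the 10616 of the count table, with several promoters for some genes. That background was not limited to genes expressed in these cells, so it is not matched to the members. A match is a description of the letters and not evidence of a bound site.

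The 14 mitochondrial synthetases held the lowest p of the synthetases as a whole. Aars2, the mitochondrial alanyl enzyme (chromosome 17, 45503515 to 45520843), was at 51.8, 39.7 and 54.8 counts in KPC-shBrca2 and 78.8, 86.4 and 77.1 in KPC-shControl. Every KPC-shBrca2 library lay below every KPC-shControl library, and the log2 fold change of -0.73 ± 0.28 was the lowest of all members. It did not pass the test (unadjusted p 0.00859, adjusted p 0.292). Vars2, the valyl enzyme (chromosome 17), was at 140, 131 and 87.9 against 157, 182 and 165, also without overlap (-0.50 ± 0.23, unadjusted p 0.0289, adjusted p 0.482). The most abundant of the class were Iars2, with a log2 fold change of 0.20 ± 0.23, and Tars2, with -0.17 ± 0.20. By count 6 estimates were above 0 and 8 below, with a median of -0.18, and none had an interval within 0.5 of 0, which goes with a median of 82.3 counts per gene. The shares of counts overlapped, at 0.0565% ± 0.00389 in KPC-shBrca2 and 0.0607% ± 0.00373 in KPC-shControl.

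For 10 amino acids the cytosolic and the mitochondrial enzyme, encoded by separate genes, were set side by side. The cytosolic gene had more 3′ end counts, which do not scale with transcript length, in 10 of 10 pairs. The estimates had the same sign in 6 pairs, 2 with both above 0 and 4 with both below, and opposite signs in 4. For valine both lay below 0 (-0.28 and -0.50), for isoleucine both above (0.44 and 0.20), and for alanine the cytosolic estimate was -0.06 beside -0.73 for the mitochondrial gene.

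**Figure D5:**
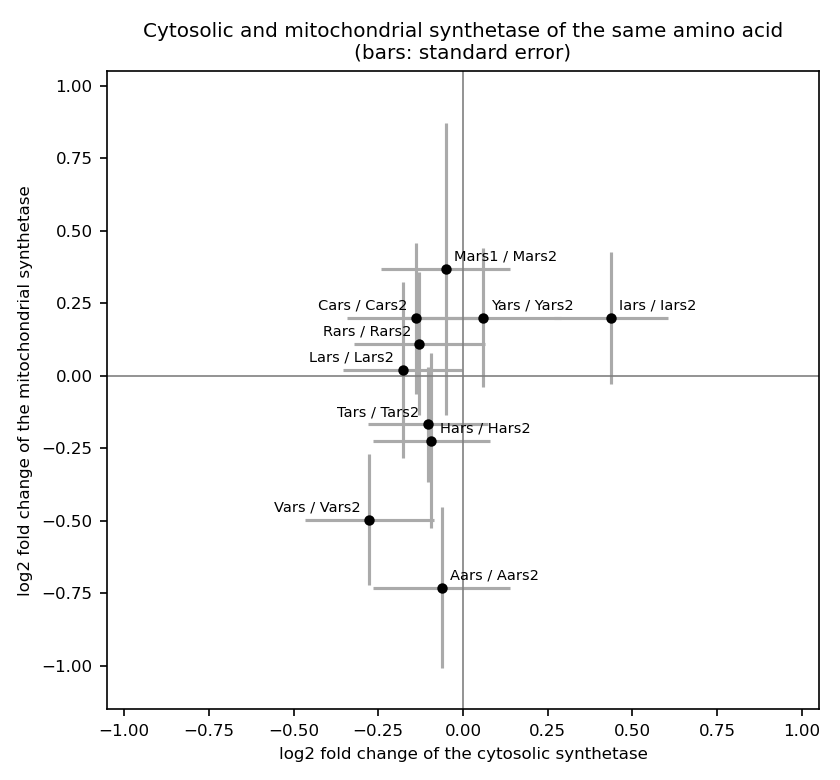
Log2 fold change of the cytosolic synthetase (x axis) and of the mitochondrial synthetase (y axis) for 10 amino acids, with bars for the standard error of each. The points fall on both sides of 0 on each axis, with Iars and Iars2 at 0.44 and 0.20, Aars and Aars2 at -0.06 and -0.73 and Vars and Vars2 at -0.28 and -0.50.

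Other genes of the pathway gave 0 calls by DESeq2, beside 1.27% of all genes tested. The mTORC1 and translation kinase genes had the lowest median, -0.21 over 10 genes with 2 above 0 and 8 below. Mtor, the kinase that phosphorylates the eIF4E-binding proteins, was at 80.4, 76.6 and 64.4 counts in KPC-shBrca2 and 92.0, 117 and 111 in KPC-shControl. These did not overlap, and the log2 fold change of -0.54 ± 0.25 did not pass the test (unadjusted p 0.0294, adjusted p 0.483). Rheb, the GTPase that activates mTORC1, was the other gene of that list with an unadjusted p under 0.05, on the higher side (0.37 ± 0.19, unadjusted p 0.0496), and its groups overlapped.

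The remaining lists were centred near 0. For 15 release, recycling and poly(A)-binding factors the median was 0.08, and the lowest p was that of Pabpc4, a poly(A)-binding protein (-0.50 ± 0.27, unadjusted p 0.0650). For 8 mitochondrial translation factors it was 0.04, with Tufm, the mitochondrial elongation factor Tu, at -0.34 ± 0.21 (unadjusted p 0.116). For 6 other synthetase subunits and scaffolds it was 0.01, with Aarsd1, an alanyl-tRNA editing protein, at -0.39 ± 0.20 (unadjusted p 0.0540). Against all genes tested, with 8.66% at an unadjusted p under 0.05, these 3 lists had 0 such genes by DESeq2.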

How the data were processed

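The deposited table holds raw read counts per gene symbol, 1 column per library, which the authors did not normalize or pool. Per the labels, poly(A) RNA of sorted KPC cells was read at its 3′ end in a MARS-seq-type protocol, with an Illumina NextSeq 500 as the sequencer. The submitters' processing notes name bcl2fastq, cutadapt, STAR 2.4.2a, HTSeq, DESeq2 and the mm10 build, with no order or role. The annotation, the use of strand and any counting of molecular identifiers are not given in the sources used here, and reads without identifiers are not independent molecules.

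All 10616 genes were fitted with DESeq2 1.42.0 in R 4.3.3 (likelihood ratio test of group, median-of-ratios size factors, Benjamini-Hochberg adjustment, independent filter at a mean count of 4.64), as in the study's methods, with its thresholds: adjusted p under 0.1, absolute log2 fold change over 0.5 and mean count over 5. Intervals are 95% Wald intervals from the standard error. With 3 libraries against 3, an exact permutation test cannot go below 0.1, so single values carry the model's p. The alternatives were edgeR 4.0.16, other size factors, filters and thresholds, and leaving out each library. Gene positions and overlaps come from RefSeq on GRCm38.p6, the primary assembly of mm10.

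The genes named were every called member, the 2 most abundant and the 2 of lowest p in each class, the 3 members with a mean over 50 counts that varied most over libraries, the gene of lowest p in each related list, and Brca2. Other genes were named after their values were seen. Members, classes and lists were chosen with earlier results of these data known, and no set was tested. The values of 1 member and 1 promoter window are not reported here. No paired analysis was possible because the labels carry no replicate numbers, and those used here follow accession order and pair no samples.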

Additional observations from a re-analysis of the deposited data

How the results depend on the processing

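The number of called members went from 1 to 0 with edgeR's test (10 of 83 members, 12.05%, at an unadjusted p under 0.05, beside 14.45% of all genes) and to 0 at an adjusted p under 0.05, and it was 0 to 1 when a library was left out. Over all genes, 127 were called, and 47 to 140 when a library was left out, with 81 without KPC-shBrca2 replicate 1, 47 without KPC-shBrca2 replicate 3 and 55 without KPC-shControl replicate 2. The count of members with an interval within 0.5 of 0, 30 in the full fit, was 19 to 28, and 19 without KPC-shControl replicate 1.

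Without 1 library the members' median log2 fold change, -0.068 in the full fit, was between -0.0706 and -0.0398. This range was, for eIF2, eIF2B and related factors, -0.14 to -0.0029, for the eIF4 factors -0.14 to -0.0392, for the subunit joining and start site factors -0.20 to -0.13, for the elongation factors -0.0593 to 0.0260, and for their kinase and methyltransferases -0.0724 to 0.12. The last 2 medians changed sign. The remaining classes kept theirs. Their ranges were -0.31 to -0.0055 for the eIF4E-binding proteins and 0.0088 to 0.0409 for the eIF3 subunits. For the cytosolic synthetases the range was -0.11 to -0.02, and for the mitochondrial synthetases -0.16 to -0.10.

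Over the 35 named genes other than Brca2 and 456 comparisons with an alternative, 437 kept direction and side of the threshold, 6 lost the call (all of Eif3e) and 13 changed sign. The 437 include the unplanned ratio of Eif3e to the other eIF3 subunits, which kept its direction but has no p and no call. The sign changes were in genes near 0 when a library was left out: Eef1akmt1 (-0.51 to 0.0326), Eef1akmt4 (-0.0482 to 0.14), Eef1b2 (-0.0017 to 0.14), Eif3h (-0.0510 to 0.11), Eif3k (-0.15 to 0.0178), Gars (-0.13 to 0.18) and Nars (-0.0682 to 0.0580, and 0.000696 with edgeR). The causes were not tested. With TMM size factors Brca2 had no adjusted p, because the filter on low counts removed it. The 30 members with an interval within 0.5 of 0 all had a mean over 100 counts. Every tested member below that mean had an interval past the fold threshold, and so did some above it, such as Iars2 at 178 counts.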

Other observations

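Subunits of eIF2 were measured from few 3′ end counts. The beta subunit gene Eif2s2 averaged 11.2 normalized counts and the gamma subunit genes Eif2s3x and Eif2s3y 47.1 and 46.2. Of the genes of eIF1A, a single-chain factor, Eif1a averaged 81.6 and Eif1ax 5.33. Their fold changes rest on these counts: for Eif2s2 the 95% interval was -1.28 to 1.04 and for Eif1ax -1.40 to 2.05. Whether their 3′ ends were counted in full was not tested.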
